A study of Mus musculus with 4 samples.

Results

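The nuclear oxidative phosphorylation subunits are the genes for those parts of the mitochondrial respiratory chain and ATP synthase that the cell nucleus encodes. They were chosen by symbol, as every gene whose name starts with Nduf and one of the letters a, b, c, s or v before a number, the 4 Sdh genes, and the names that start with Uqcr, with Cox and a number of 4 to 8, or with Atp5. After 8 rows named as pseudogenes were left out, 88 of the 52636 genes in the table matched, 40 of complex I, 4 of complex II, 8 of complex III, 19 of complex IV and 17 of complex V. The RNA came from whole pancreatic islets, the hormone-secreting cell clusters of the pancreas, of Tspan7 knockout mice (KO, genotype Tspan7y/-) in 2 libraries and of wild-type mice (WT) in 2 libraries. Tspan7 encodes tetraspanin-7, a membrane protein, and the study asked about its role in beta-cell exocytosis. The labels give no age, strain or design of the knockout allele, the text on the whole series calls it a knockdown, and whether each library is from a different animal is not stated. A p-value here thus reflects how far these particular libraries spread, which may be a technical spread.

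The respiratory chain passes electrons from NADH through complex I, or from succinate through complex II, to complex III and then to complex IV, which reduces oxygen. Complexes I, III and IV pump protons across the inner mitochondrial membrane, and complex V, the ATP synthase, uses the returning protons to make ATP. In beta cells the ATP made from glucose closes potassium channels and so leads to calcium entry and insulin release. Mitochondrial DNA encodes a few subunits of complexes I, III, IV and V, and the nucleus encodes all others, including the whole of complex II.

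The libraries held 9377220 and 7855665 counts in KO replicates 1 and 2, and 8704271 and 9140275 counts in WT replicates 1 and 2. Levels are given as CPM, the counts of a gene relative to the scaled total of its library, and a detection floor of 3 counts lay at 0.320 to 0.382 CPM, for counting error only. Tspan7 checked the labels, with 3 and 2 counts in KO replicates 1 and 2, against 1924 and 1795 counts in WT replicates 1 and 2. Its level was 0.287 ± 0.033 CPM in KO and 208 ± 25.98 CPM in WT islets (SD, n = 2 each), a log2 fold change of -9.42 ± 0.25 (SE, adjusted p = 3.53e-06 in edgeR's quasi-likelihood test), and it was the only gene called among 16924 tested. Each of the 10 endocrine markers, among them Ins1, Ins2, Gcg, Sst and Ppy, was detected in every library. Acinar enzyme genes, which mark exocrine pancreas, summed to 1568 and 7385 CPM in KO replicates 1 and 2, against 3522 and 86.0 CPM in WT replicates 1 and 2, over 14 genes with none at 0.

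No subunit gene of any of the 5 complexes passed the test between KO and WT islets. Of the 88 genes, 77 had enough counts to be tested, and 0 of them were called higher or lower at an adjusted p under 0.05 in edgeR, where 0% of all tested genes were called higher and 0.00591% lower. At an unadjusted p under 0.05 there were 0 subunit genes on the higher side and 1 on the lower side, against 1.55% and 1.96% of all tested genes. DESeq2 and limma-voom also called 0 of them. The adjusted p was 0.9998 or above for each of the 77 in edgeR's test.

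The differences were small as well as uncalled. The log2 fold changes ran from -0.42 for Ndufa4 to 0.33 for Atp5s, 38 of 77 lay within 0.1 of 0 and 74 lay within 0.25. The 95% confidence interval (CI) of each of the 77 stayed within a log2 change of 1 in both directions, which is 2-fold, and that of 61 stayed within 0.585, which is 1.5-fold. The standard errors were 0.13 to 0.27. These intervals bound single genes at counts of 47 to 3009 per library, and they do not show that the levels were equal. In bulk islets fewer cells of a type and less RNA per cell cannot be told apart.

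**Figure D1:**
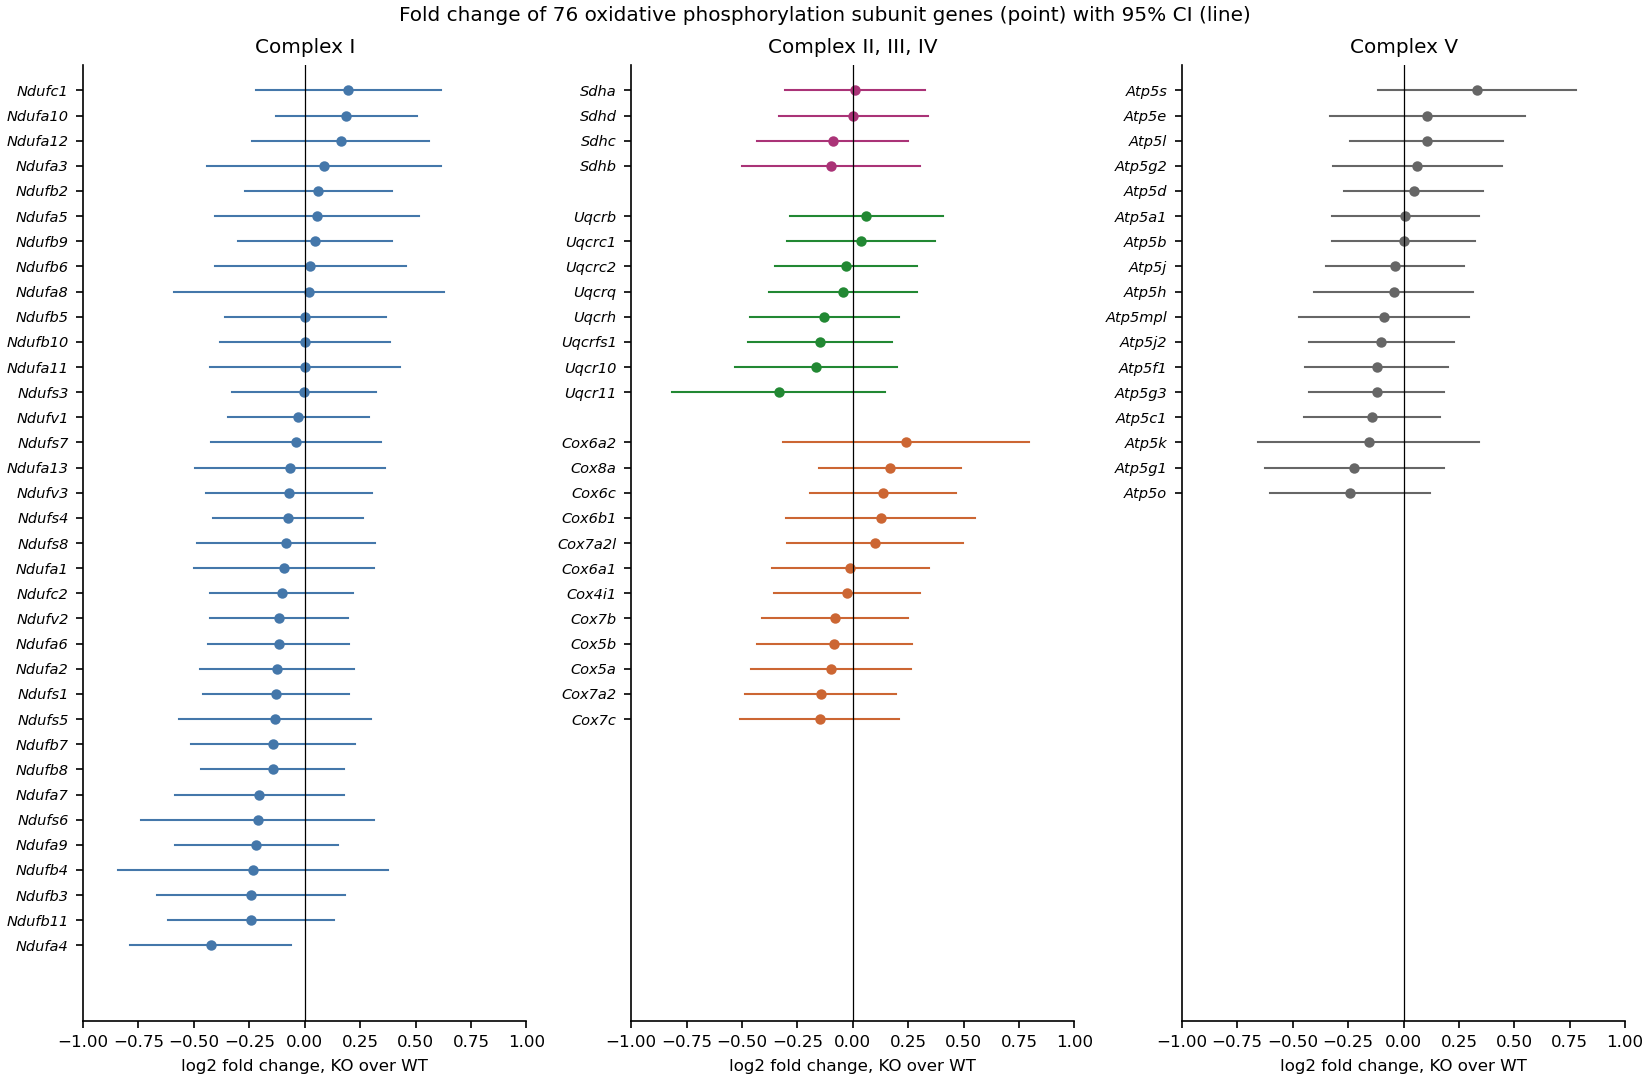
Log2 fold change of KO over WT (horizontal axis) for 76 of the 77 tested subunit genes, grouped by complex, with points for the estimate and lines for the 95% CI of edgeR's quasi-likelihood fit (2 libraries a group). All intervals lie within a log2 change of 1 in both directions, and only that of Ndufa4 (-0.79 to -0.06) leaves out 0.

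More subunit genes lay on the lower than on the higher side. Of the 77, 49 had a negative and 28 a positive log2 fold change, with a median of -0.07, beside 8360 negative and 8564 positive among all tested genes and a median of 0.00. In CPM, both KO libraries lay below both WT libraries in 23 of 77 (29.9%) and above them in 5 of 77 (6.49%). The shares over all tested genes were 15% and 15.3%. Among the 5414 genes in the same range of abundance, from the 10th to the 90th percentile of the subunit genes, the shares were 15.8% and 14.2% and the median was -0.003. The median of the subunit genes moved with the library left out. It was 0.03 without KO replicate 1, -0.14 without KO replicate 2, 0.002 without WT replicate 1 and -0.10 without WT replicate 2. Among the complexes the lowest and highest medians with 1 library left out were -0.15 (without KO replicate 2) and 0.004 (without KO replicate 1) for complex I, -0.13 (without WT replicate 2) and 0.04 (without KO replicate 1) for complex II, -0.16 (without KO replicate 2) and -0.005 (without KO replicate 1) for complex III, -0.11 (without KO replicate 2) and 0.08 (without WT replicate 1) for complex IV, and -0.12 (without KO replicate 2) and 0.005 (without WT replicate 1) for complex V. The sign of the median thus turned in complexes I, II, IV and V.

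In scaled CPM, KO replicate 1 was the library with the lowest levels. Relative to each gene's own mean over the 4 libraries, the median level of the 77 genes on the log2 scale was -0.11 in KO replicate 1 and 0.05 in KO replicate 2, against 0.08 in WT replicate 1 and -0.02 in WT replicate 2. KO replicate 1 was the lowest of the 4 libraries for 48 genes, KO replicate 2 for 7, WT replicate 1 for 3 and WT replicate 2 for 19. KO replicate 2 lay above KO replicate 1 in 66 of 77 genes, while over all tested genes this held for 8409 of 16924. In 14 of 77 genes the gap between the group means was larger than both gaps within a group (18.2%), beside 3233 of 16924 (19.1%) over all tested genes.

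**Figure D2:**
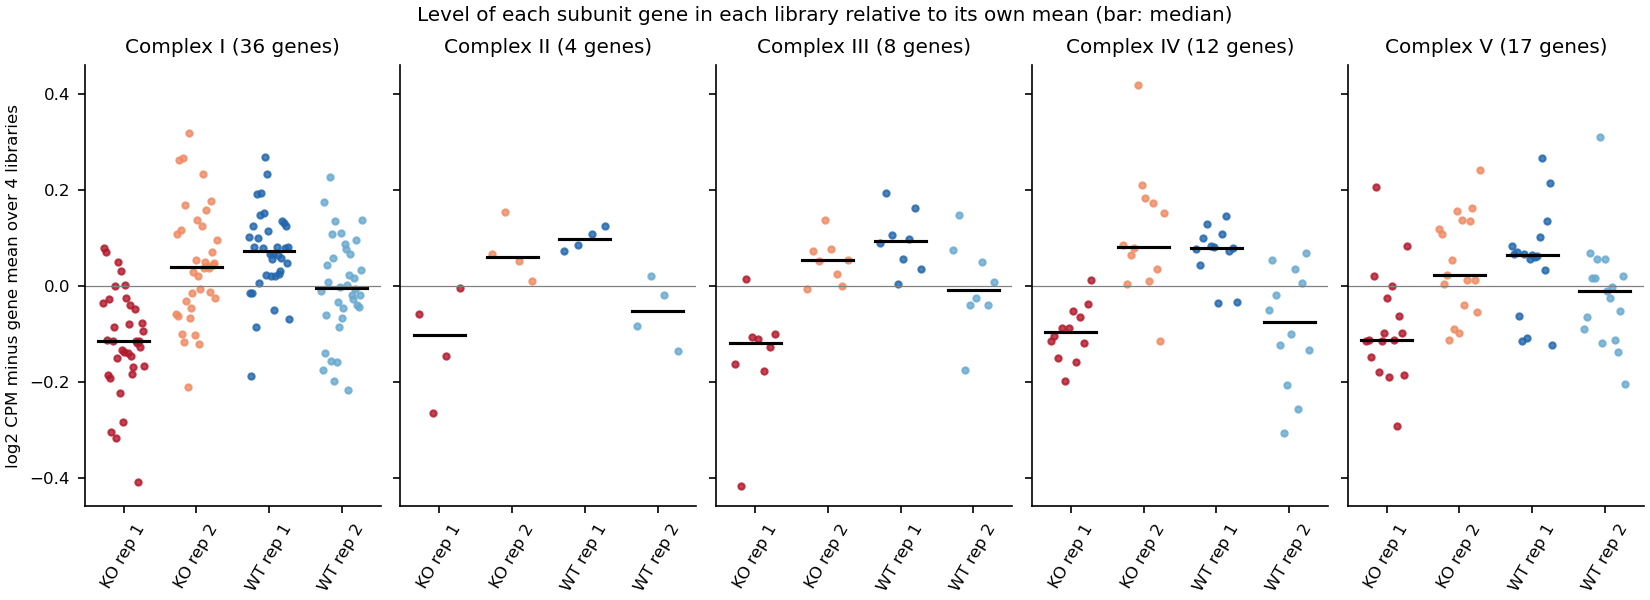
Log2 CPM of each tested subunit gene minus its own mean over the 4 libraries (vertical axis), by library and complex, with one point per gene and a bar at the median. In each of the 5 complexes the median of KO replicate 1 is the lowest of the 4 and those of KO replicate 2 and WT replicate 1 lie above 0.

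Summed over all 88 genes, the level was 3399 and 3836 CPM in KO replicates 1 and 2, against 3834 and 3574 CPM in WT replicates 1 and 2. The group means were 3618 ± 309 CPM in KO and 3704 ± 183 CPM in WT islets (SD, n = 2 each), a ratio of 0.977 and a difference smaller than either spread. In scaled CPM, libraries of the same group thus differed more than the groups did. The scaling factors were 1.031 and 0.9638 in KO and 0.9745 and 1.033 in WT replicates 1 and 2. The unscaled shares of all counts were 0.350% and 0.370% in KO and 0.374% and 0.369% in WT replicates 1 and 2. There the 2 WT libraries and KO replicate 2 lay close together, and KO replicate 1 stood apart. The low place of WT replicate 2 in CPM, beside KO replicate 1, thus depends on the scaling. Ribosomal protein genes of the cytosol had the same 2 low libraries, with 8483 and 9550 CPM in KO replicates 1 and 2, against 9884 and 8562 CPM in WT replicates 1 and 2. So did the 10 endocrine markers, with 29971 and 35632 CPM in KO replicates 1 and 2, against 35244 and 29524 CPM in WT replicates 1 and 2. In each of these sums, and in that of the acinar genes given above, KO replicate 2 and WT replicate 1 were the 2 high libraries. Mitochondrial ribosome genes had another order, with 1464 and 1414 CPM in KO replicates 1 and 2, against 1446 and 1476 CPM in WT replicates 1 and 2. The part of cell makeup in the level of the subunit genes was not tested.

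**Figure D3:**
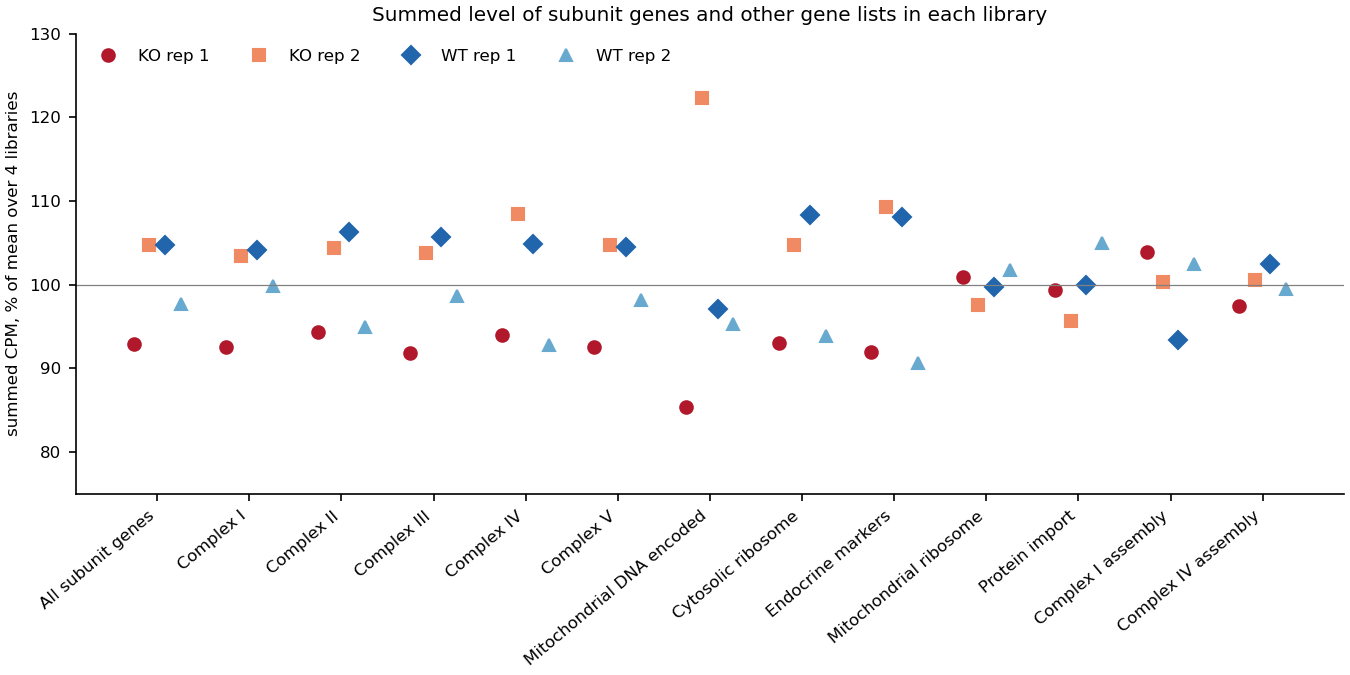
Summed CPM of the subunit genes and of other gene lists in each library, as a percentage of the list's mean over the 4 libraries (vertical axis), with KO replicates 1 and 2 left of WT replicates 1 and 2. For the subunit genes (3399 and 3836 CPM in KO, 3834 and 3574 CPM in WT), the cytosolic ribosome and the endocrine markers, KO replicate 1 and WT replicate 2 are low together. Without the scaling, WT replicate 2 and KO replicate 2 lie close for the subunit genes (0.369% and 0.370% of counts).

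Ndufa4 was the single subunit gene past an unadjusted p of 0.05. It encodes a small protein first assigned to complex I and now known as a subunit of complex IV. It measured 21.3 and 24.3 CPM in KO replicates 1 and 2, against 30.2 and 30.9 CPM in WT replicates 1 and 2. Both KO libraries were lower than both WT libraries, and the groups did not overlap. The log2 fold change was -0.42 ± 0.16 (SE, 95% CI -0.79 to -0.06, unadjusted p = 0.0276), and it failed the correction (adjusted p = 0.9998 in edgeR; 0.666 or more under the alternatives). Without WT replicate 1, without WT replicate 2, with DESeq2 or with a replicate block it was no longer past the unadjusted threshold either, since 0 subunit genes were. No stretch of 50 bases of its transcript occurs in the transcript of another gene. Exons of 26 of the 88 genes overlap exons on the opposite strand in the annotation, though not those of Ndufa4, and whether reads were counted by strand is not given in the labels.

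Promoters were examined as a feature that the choice by symbol did not use. RefSeq sequences on GRCm38.p6, from 250 bases before to 50 after the start, matched 68 of the 88 genes, 64 of them tested. The motifs searched, on both strands, were those of NRF1 (GCGCATGC), of ETS factors such as GABP (CCGGAAG), of YY1 (AAGATGG), of NF-Y (CCAAT), of SP factors (GGGCGG) and of the TATA-binding protein TBP (TATAAA). NRF1, GABP and YY1 are known regulators of respiratory chain genes. The promoters of Ndufa4, the gene of smallest p, of Uqcr11, the complex III gene of smallest p, and of Cox6a1, the broadly expressed paralog of a pair described below, show how much these promoters differ, with matched motifs in capitals. They lie at chr6:11907401-11907700 on the minus strand, chr10:80406772-80407071 on the minus strand and chr5:115348909-115349208 on the minus strand.
Ndufa4: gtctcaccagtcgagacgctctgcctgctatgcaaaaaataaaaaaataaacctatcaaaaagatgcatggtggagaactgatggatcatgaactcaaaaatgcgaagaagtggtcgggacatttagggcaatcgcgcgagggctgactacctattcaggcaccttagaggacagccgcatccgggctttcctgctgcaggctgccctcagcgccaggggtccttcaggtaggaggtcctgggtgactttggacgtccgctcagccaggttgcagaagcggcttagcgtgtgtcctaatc
Uqcr11: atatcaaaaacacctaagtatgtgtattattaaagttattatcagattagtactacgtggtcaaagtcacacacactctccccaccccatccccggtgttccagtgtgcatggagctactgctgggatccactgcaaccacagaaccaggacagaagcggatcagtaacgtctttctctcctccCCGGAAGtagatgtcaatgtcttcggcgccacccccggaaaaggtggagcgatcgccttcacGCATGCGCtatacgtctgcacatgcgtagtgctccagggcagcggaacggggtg
Cox6a1: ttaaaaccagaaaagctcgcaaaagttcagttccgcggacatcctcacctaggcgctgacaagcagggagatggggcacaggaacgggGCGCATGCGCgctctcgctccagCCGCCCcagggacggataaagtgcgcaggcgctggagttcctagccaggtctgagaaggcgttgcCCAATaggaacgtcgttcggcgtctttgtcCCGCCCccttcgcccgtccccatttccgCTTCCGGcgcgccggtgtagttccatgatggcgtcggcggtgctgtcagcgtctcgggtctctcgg

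The Ndufa4 window held none of the 6 motifs. The Uqcr11 window held an ETS and an NRF1 match, and that of Cox6a1 held 6 matches in all, to the motifs of NRF1 on both strands (which overlap), of SP factors, of NF-Y and of ETS factors. A match is only a run of letters and does not show that a factor binds there.

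Of the 64 tested subunit genes with a promoter, 15.6% held the NRF1 motif, against 5.64% of 11180 other tested genes and 3.05% of all 27025 genes in the promoter table. The ETS motif was in 25% of the subunit genes and 18.7% of the other tested genes, and the YY1 motif in 17.2% and 8.18%. The SP motif went the other way, in 40.6% of the subunit genes and 66.6% of the other tested genes. The NF-Y motif was in 42.2% of both. The TBP motif was in 7.81% of the subunit genes and 9.36% of the other tested genes. The shares over all genes in the table were 9.93% for ETS, 7.28% for YY1, 38.2% for SP, 41.1% for NF-Y and 15.7% for TBP. The average GC content of the windows was 57.8% in the subunit genes and 60.5% in the other tested genes.

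The fold changes of the tested subunit genes were also described by motif, with no test. The median log2 fold change of KO over WT was -0.01 in the 10 subunit genes with the NRF1 motif and -0.08 in the 54 without it. It was -0.02 in the 16 with the ETS motif and -0.09 in the 48 without it. For YY1 it was -0.10 in 11 genes and -0.07 in 53. For SP it was -0.01 in 26 and -0.10 in 38. NF-Y had -0.08 in 27 genes with its motif and -0.04 in 37 without, and TBP -0.04 in 5 and -0.08 in 59.

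**Figure D4:**
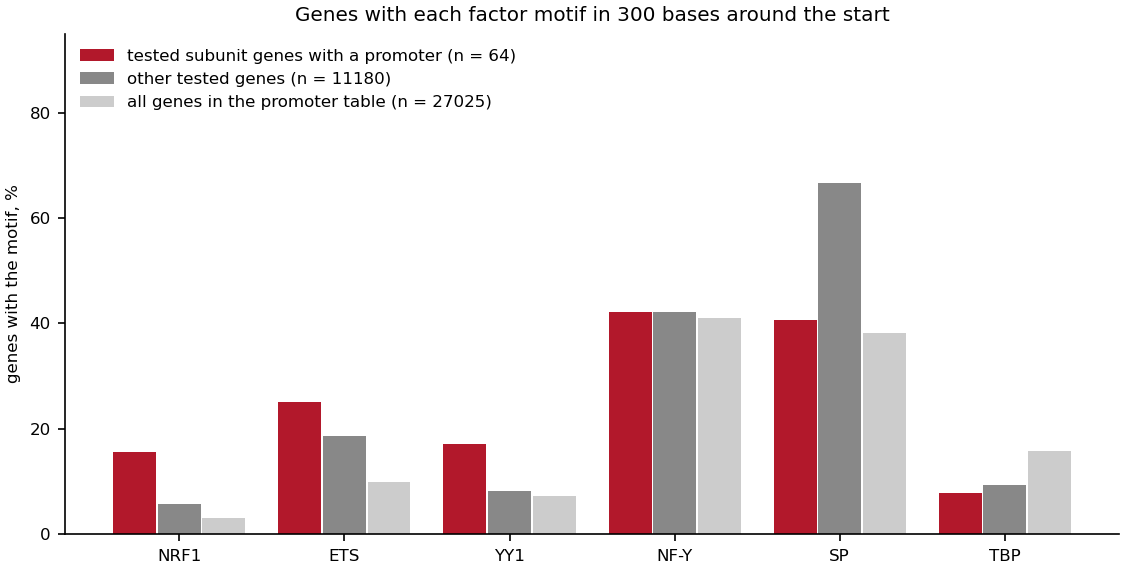
Share of genes (vertical axis, percent) whose RefSeq promoter window of 300 bases holds the motif of each factor, for 64 tested subunit genes, 11180 other tested genes and all 27025 genes in the promoter table. NRF1 stands at 15.6% in subunit genes and 5.64% in other tested genes, and SP at 40.6% and 66.6%.

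Complex I, the NADH dehydrogenase, had 36 tested genes, 12 with a positive and 24 with a negative log2 fold change and a median of -0.07. Both KO libraries lay below both WT libraries in 13 of them (36.1%, beside 15% of all tested genes) and above in 2 (5.56%, beside 15.3%). Their sum was 1047 and 1171 CPM in KO replicates 1 and 2, against 1179 and 1130 CPM in WT replicates 1 and 2. KO replicate 1 was the lowest library, and KO replicate 2 lay between the WT libraries.

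The 7 nuclear core subunits of complex I, which are shared with bacterial enzymes, include those that carry its flavin and iron-sulfur centres or form its quinone site. Their log2 fold changes had a median of -0.04, and in CPM all 7 were lowest in KO replicate 1. In the counts per length given below, some of them, such as Ndufv1, were lowest in KO replicate 2. Ndufv1, which binds the flavin that takes the electrons of NADH, measured 41.3 and 45.0 CPM in KO replicates 1 and 2, against 45.0 and 43.0 CPM in WT replicates 1 and 2 (-0.03 ± 0.14, SE). Its partner Ndufv2, an iron-sulfur protein, measured 46.5 and 48.7 CPM in KO, against 52.5 and 50.7 CPM in WT islets (-0.12 ± 0.13). Ndufs1, the large iron-sulfur subunit, measured 66.5 and 78.2 CPM in KO, against 79.0 and 79.2 CPM in WT islets (-0.13 ± 0.14). For Ndufv2 and Ndufs1 the groups did not overlap, while for Ndufv1 they did.

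Ndufs3, a subunit of the arm that reaches into the matrix, was at 35.5 and 37.8 CPM in KO, against 37.5 and 36.0 CPM in WT islets, a log2 fold change of -0.005 ± 0.14, with 35.8% of its 50-base stretches shared with other genes. Ndufs7 and Ndufs8, which carry the last iron-sulfur clusters before the quinone, had log2 fold changes of -0.04 ± 0.17 and -0.08 ± 0.18. In these 3 genes the KO and WT libraries overlapped.

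The 29 other tested genes of complex I are accessory subunits, and Ndufa4 is counted among them by its symbol. Their median was -0.08, with 11 positive and 18 negative. Next to Ndufa4 in p came Ndufb11, an X-linked membrane subunit, at 37.5 and 43.3 CPM in KO, against 52.8 and 42.8 CPM in WT islets (-0.24 ± 0.16). The groups overlapped, and WT replicate 1 stood above the other libraries. Ndufb3, another membrane subunit, had the same log2 fold change of -0.24 ± 0.18, at 14.5 and 14.8 CPM in KO, against 18.7 and 15.9 CPM in WT islets. Ndufa9, a subunit near the quinone site, measured 20.3 and 21.5 CPM in KO, against 23.8 and 24.8 CPM in WT islets (-0.22 ± 0.16). Ndufa7 stood at 23.3 and 20.1 CPM in KO, against 25.8 and 24.2 CPM in WT islets (-0.20 ± 0.17). In Ndufb3, Ndufa9 and Ndufa7 both KO libraries were below both WT libraries.

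On the other side Ndufa10 measured 55.5 and 56.7 CPM in KO, against 52.0 and 46.5 CPM in WT islets (0.19 ± 0.14), with both KO libraries above. Ndufc1, a small membrane subunit, had the highest estimate of the complex, 0.20 ± 0.18, at 21.9 and 26.5 CPM in KO, against 22.9 and 19.4 CPM in WT islets. Its groups overlapped. Exons of Ndufb11 overlap those of Rbm10 on the opposite strand over 117 bases. The other X-linked genes were Ndufa1 of complex I (-0.09 ± 0.18) and Cox7b of complex IV (-0.08 ± 0.14), and the 3 X-linked subunits summed to 88.5 and 98.1 CPM in KO, against 110 and 97.3 CPM in WT islets. Tspan7 is X-linked too.

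Complex II, the succinate dehydrogenase, links the citric acid cycle to the chain. Its 4 genes gave 295 and 327 CPM in KO replicates 1 and 2, against 332 and 297 CPM in WT replicates 1 and 2, with a median log2 fold change of -0.04. Sdha, the flavoprotein that oxidises succinate, measured 169 and 184 CPM in KO, against 185 and 166 CPM in WT islets (0.01 ± 0.14). Sdhb, the iron-sulfur subunit, measured 30.1 and 40.3 CPM in KO, against 38.4 and 36.7 CPM in WT islets (-0.10 ± 0.17). The membrane anchors Sdhc and Sdhd had -0.09 ± 0.15 and 0.00 ± 0.15. In all 4 genes the groups overlapped.

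Complex III, the cytochrome bc1 complex, had 8 tested genes, 6 below and 2 above 0, and a median of -0.09. In 3 of them (37.5%, beside 15% of all tested genes) both KO libraries were below both WT libraries in CPM. They summed to 334 and 378 CPM in KO replicates 1 and 2, against 385 and 359 CPM in WT replicates 1 and 2. Uqcrfs1, the Rieske iron-sulfur protein that takes electrons from quinol, was at 52.9 and 60.9 CPM in KO, against 64.0 and 61.9 CPM in WT islets (-0.15 ± 0.14). The structural core proteins Uqcrc1 and Uqcrc2 had log2 fold changes of 0.04 ± 0.15 and -0.03 ± 0.14. The extremes were small subunits.

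Uqcr11, whose promoter is printed above, had the lowest estimate of complex III at -0.33 ± 0.21 (95% CI -0.82 to 0.15). It measured 12.7 and 18.0 CPM in KO, against 19.6 and 19.0 CPM in WT islets. The value moved with the KO library, since the log2 fold change was -0.10 without KO replicate 1 and -0.60 without KO replicate 2. Uqcr10 followed with -0.17 ± 0.16, and Uqcrb, which supports the quinone site, had the highest estimate at 0.06 ± 0.15, with 43.2% of its 50-base stretches shared with other genes. Of the 50-base stretches of Uqcr11, 10.9% were shared.

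Complex IV, the cytochrome c oxidase, had 12 tested genes of 19, 5 on the positive and 7 on the negative side and a median of -0.02. They summed, with the 7 untested genes, to 511 and 589 CPM in KO replicates 1 and 2, against 569 and 504 CPM in WT replicates 1 and 2. It was the one complex whose KO mean, 550 ± 55.4 CPM, lay above its WT mean, 537 ± 46.3 CPM (SD, n = 2 each), a difference smaller than either spread. Cox4i1, a regulatory subunit that binds ATP, had 56.1 and 64.5 CPM in KO, against 64.1 and 58.7 CPM in WT islets (-0.03 ± 0.14). Cox5a, needed early in assembly, had -0.10 ± 0.16.

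Cox8a, a small membrane subunit, measured 51.0 and 56.3 CPM in KO, against 49.4 and 46.1 CPM in WT islets (0.17 ± 0.14). It was the one tested gene of complex IV with both KO libraries above both WT libraries (8.33%, beside 15.3% of all tested genes). Both KO libraries lay below both WT libraries in 3 of the 12 (25%, beside 15%), namely Cox5a, Cox7a2 and Cox7c. Cox7c had the lowest estimate of the complex at -0.15 ± 0.16, and 53% of its 50-base stretches were shared with other genes. Cox7a2, next to it at -0.15 ± 0.15, shared none. Cox7a2l, a relative of Cox7a2 that joins complexes III and IV into supercomplexes, was at 102 and 120 CPM in KO, against 118 and 89.2 CPM in WT islets (0.10 ± 0.17). Its groups overlapped.

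Several complex IV subunits exist as paralogs with tissue-specific use, and the heart and muscle forms were compared with the broadly expressed ones per length. Cox6a2, the heart and muscle form of subunit VIa, was well detected, at 19.7 and 30.2 CPM in KO replicates 1 and 2, against 23.9 and 18.2 CPM in WT replicates 1 and 2. It had the highest estimate of complex IV at 0.24 ± 0.24 (SE, 95% CI -0.32 to 0.80), with groups that overlapped. Cox6a1 was at 41.9 and 47.0 CPM in KO, against 48.7 and 40.9 CPM in WT islets (-0.01 ± 0.15). Per exon length, Cox6a2 made up 28.3% and 35.1% of the pair in KO replicates 1 and 2, against 29.2% and 27.2% in WT replicates 1 and 2. KO replicate 2 stood above the other 3 libraries. The means were 31.7% ± 4.82 in KO and 28.2% ± 1.41 in WT islets (SD, n = 2 each), a difference smaller than the KO spread, and without KO replicate 2 the log2 fold change of Cox6a2 was -0.10.

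The other tissue-specific forms were at the edge of detection. Cox4i2, the lung form of subunit IV, had 7 and 6 counts in KO, against 3 and 5 counts in WT islets, which is 1.31% and 1.24% of the Cox4i pair in KO, against 0.562% and 0.916% in WT islets. Cox7a1, the heart and muscle form, had 4 and 0 counts in KO, against 3 and 5 counts in WT islets. Cox6b2 and Cox8c are best known from testis, Cox8b from muscle, and like Cox7b2 they had at most 2 counts in any library. Cox6b1, the common form of subunit VIb, measured 23.4 and 28.8 CPM in KO, against 26.3 and 21.5 CPM in WT islets (0.13 ± 0.19). Ndufa4l2, a hypoxia-induced relative of Ndufa4, had 9 and 8 counts in KO, against 9 and 11 counts in WT islets. The 11 untested genes, none above 11 counts in a library, were these 7 and Cox6c2, Ndufa11b, Ndufb4c and Ndufs6b, which the annotation types as pseudogenes.

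**Figure D5:**
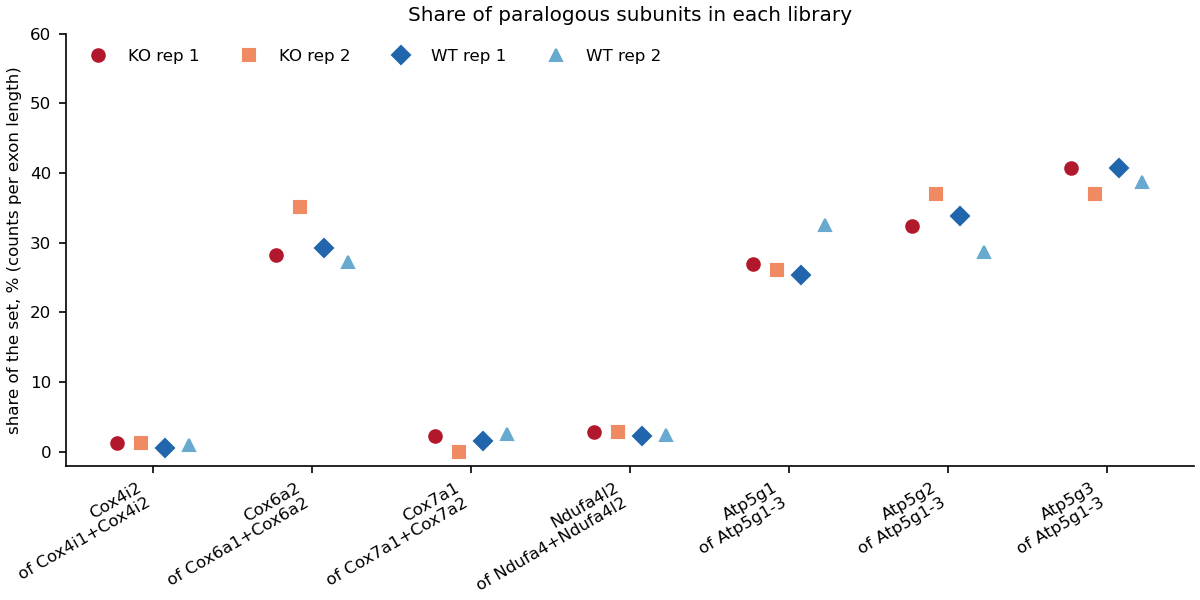
Share of each paralog in its set (vertical axis, percent of counts per exon length) in each library, with KO replicates 1 and 2 left of WT replicates 1 and 2. Cox6a2 lies between 27.2% and 35.1%, while Cox4i2, Cox7a1 and Ndufa4l2, at up to 11 counts a library, stay under 3%.

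Complex V, the ATP synthase, had 17 tested genes, 10 below and 7 above 0, and their median was -0.05. They summed to 1212 and 1372 CPM in KO replicates 1 and 2, against 1368 and 1285 CPM in WT replicates 1 and 2. The catalytic head is built of the alpha and beta subunits around gamma. Atp5a1 (alpha) had 309 and 364 CPM in KO, against 355 and 315 CPM in WT islets (0.01 ± 0.14). Atp5b (beta) had 244 and 285 CPM in KO, against 277 and 252 CPM in WT islets (0.00 ± 0.14). Atp5c1 (gamma) had 118 and 132 CPM in KO, against 138 and 138 CPM in WT islets (-0.14 ± 0.13). The groups overlapped for alpha and beta, and for gamma both KO libraries were below both WT libraries.

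Atp5s, a coupling factor of the ATP synthase, had the highest estimate of all 77 genes at 0.33 ± 0.19 (SE, 95% CI -0.12 to 0.78). It measured 13.2 and 14.8 CPM in KO, against 11.4 and 10.8 CPM in WT islets, with both KO libraries above both WT libraries. Atp5o, which links the head to the peripheral stalk, was lowest in the complex at -0.24 ± 0.16, with 26.4 and 28.9 CPM in KO, against 34.9 and 30.5 CPM in WT islets. Atp5o overlaps genes on the opposite strand over 702 exonic bases, and 19.1% of its 50-base stretches were shared.

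The proton-carrying c-ring is made from 3 genes, Atp5g1, Atp5g2 and Atp5g3, which encode the same mature protein. Per exon length Atp5g3 made up 40.7% and 37.0% of the set in KO, against 40.7% and 38.8% in WT islets. Atp5g2 made up 32.4% and 36.9% in KO, against 33.9% and 28.7% in WT islets, and Atp5g1 26.9% and 26.1% in KO, against 25.4% and 32.5% in WT islets. WT replicate 2 had the highest Atp5g1 and the lowest Atp5g2 share. All 50-base stretches of Atp5g2 and 66% of those of Atp5g1 occur in other genes too, so the split between them is uncertain, while Atp5g3 shared none. Their log2 fold changes were -0.22 ± 0.18 for Atp5g1 (0.005 without WT replicate 2), 0.06 ± 0.17 for Atp5g2 and -0.12 ± 0.13 for Atp5g3.

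Levels of different genes were compared as TPM, that is counts per kilobase, scaled to the same sum in each library. Exon length was that of a representative transcript, and coding length merged the coding bases of all transcripts of a gene. By exon length complex V had the highest median, 111 TPM in KO and 119 TPM in WT islets, and complex I the lowest, 54.0 TPM in KO and 57.5 TPM in WT islets. Between them came complex III with 89.3 TPM in KO and 101 TPM in WT, complex IV with 86.2 TPM in KO and 96.3 TPM in WT, and complex II with 74.0 TPM in KO and 76.7 TPM in WT islets. These medians rank levels and do not compare KO with WT, since each rests on the middle genes of its complex. For complex IV the median log2 fold change was -0.02, and the summed level was 550 CPM in KO and 537 CPM in WT islets. The tested genes spanned a 23.5-fold range. In TPM the order of the libraries differed from that in CPM for some genes. Ndufv1 was lowest in KO replicate 2, at 49.8 and 47.3 TPM in KO replicates 1 and 2, while Ndufs1 was at 51.5 and 52.7. Overlap of the groups depended on the scale too. Uqcrc2 overlapped in CPM but not in TPM (70.7 and 70.0 in KO, 72.7 and 72.6 in WT). Ndufa1 overlapped in TPM (73.3 and 62.7 in KO, 73.95 and 72.0 in WT) but not in CPM. Non-overlap was counted in CPM only. By coding length the order of the complexes was another, with medians over the 4 libraries of 170 TPM for complex IV, 163 for III, 152 for V, 119 for II and 68.7 for I, so only the last place of complex I was the same by both lengths.

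By exon length the 3 highest were Cox6c, a complex IV subunit, at 283 ± 4.77 TPM in KO and 261 ± 1.63 TPM in WT, Atp5b at 257 ± 2.60 TPM in KO and 260 ± 6.95 TPM in WT, and Atp5a1 at 254 ± 4.29 TPM in KO and 255 ± 12.1 TPM in WT islets (SD, n = 2 each). Atp5b and Atp5a1 did not differ beyond their spread in either group, nor did Cox6c and Atp5b in WT islets, and Atp5c1 came after them at 200 ± 4.86 TPM in KO and 223 ± 8.13 TPM in WT islets. The 3 lowest were Ndufb4 at 10.6 ± 0.787 TPM in KO and 12.6 ± 0.442 TPM in WT, Atp5s at 17.6 ± 0.354 TPM in KO and 14.1 ± 0.0356 TPM in WT, and Sdhc at 23.4 ± 0.0146 TPM in KO and 25.2 ± 0.629 TPM in WT islets. Cox6c shared 21.1% and Ndufb4 37% of their 50-base stretches with other genes. In CPM the groups of Cox6c overlapped, at 70.3 and 82.7 CPM in KO, against 71.1 and 68.0 CPM in WT islets (0.14 ± 0.14, SE). The groups of Sdhc overlapped in CPM too. The place of Sdhc rests on its long transcript, since by coding length its mean over the 4 libraries was 114 TPM in place of 24.3. Of the 3 highest, Cox6c kept its place by coding length with 450 TPM over the 4 libraries, while Cox7a2l with 374 and Cox8a with 321 came before Atp5a1 with 284 and Atp5b with 234.

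The subunits that mitochondrial DNA encodes summed to 33234 and 47628 CPM in KO replicates 1 and 2, against 37829 and 37116 CPM in WT replicates 1 and 2. All 13 were lowest in KO replicate 1, and their median log2 fold change was 0.10, with 8 positive and 5 negative. The median turned with the library left out, at 0.33 without KO replicate 1 and -0.23 without KO replicate 2. The complex I subunit mt-Nd4 measured 2766 and 4020 CPM in KO, against 3149 and 3079 CPM in WT islets (0.12 ± 0.19). The gene of smallest p, mt-Co2, was counted at only 2.69 and 4.23 CPM in KO, against 5.89 and 4.34 CPM in WT islets (-0.58 ± 0.34). That is 26 to 50 counts in a library, while mt-Nd4 had 26711 to 30434, and the files do not say why, so the level and fold change of mt-Co2 are uncertain as expression. Counts were also low for mt-Atp8 (9 to 15), mt-Atp6 (24 to 47), mt-Co3 (58 to 73), mt-Nd4l (185 to 250) and mt-Nd3 (304 to 363). Their values are uncertain too. The 5 negative genes were mt-Co2, mt-Atp8, mt-Co3, mt-Nd4l and mt-Nd3. All genes with 26711 counts or more in each library were positive, at 0.09 to 0.12. None of the 13 passed an unadjusted p of 0.05. Subunit genes of other symbols (Cyc1, Ndufab1 and 3 more) had a median of -0.02, with Ndufab1, the acyl carrier protein in complex I, at 0.09 ± 0.15 and Ndufb1-ps at -0.03 ± 0.19.

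Cycs, the somatic cytochrome c that carries electrons from complex III to complex IV, had the smallest p of the carriers. It measured 25.7 and 24.2 CPM in KO, against 32.1 and 35.8 CPM in WT islets, with both KO libraries below both WT libraries (-0.44 ± 0.15, unadjusted p = 0.0195), and it failed the correction (adjusted p = 0.9998 in edgeR). Etfa, which feeds electrons from fatty acid oxidation, had 0.13 ± 0.17, and the median of the 4 carriers was 0.05.

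Genes for assembly factors lay on both sides of 0. The median of the 15 factors of complex I was 0.07, and the 2 of smallest p were Ndufaf6 (0.39 ± 0.23) and Ndufaf2 (0.34 ± 0.27). Of the 22 factors of complex IV, with a median of 0.00, Sco2, which delivers copper, was at 12.8 and 12.02 CPM in KO, against 8.37 and 9.32 CPM in WT islets (0.49 ± 0.21). Cox11, another copper factor, was at 0.39 ± 0.18. Both genes had both KO libraries above both WT libraries, and neither was called, with an unadjusted p of 0.0456 for Sco2 in edgeR. The factors of complex II had a median of -0.06 (Sdhaf2 -0.10 ± 0.14, Sdhaf3 -0.08 ± 0.32), those of complex III -0.03 (Uqcc3 -0.41 ± 0.29, Bcs1l 0.18 ± 0.23) and those of complex V -0.06 (Atpaf2 0.19 ± 0.18, Tmem70 -0.12 ± 0.16).

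The 14 regulators of mitochondrial gene expression, from Ppargc1a and Nrf1 to Tfam, had a median of 0.00, with 7 positive and 7 negative. Ppargc1a measured 66.2 and 70.9 CPM in KO, against 118 and 18.6 CPM in WT islets. The WT libraries thus lay far apart, and its log2 fold change of 0.01 ± 1.14 (SE) does not show an unchanged level. Polrmt, the mitochondrial RNA polymerase, was at -0.45 ± 0.22 and Pprc1, a PGC-1-related coactivator, at -0.28 ± 0.20. The 78 tested mitochondrial ribosome genes had a median of -0.06 (Mrps30 0.32 ± 0.17, Mrpl12 -0.39 ± 0.23), the 25 protein import genes -0.07 (Timm8a1 0.99 ± 0.46, Tomm5 -0.62 ± 0.27) and the 84 cytosolic ribosome genes -0.03 (Rps16 -0.27 ± 0.14, Rpl27 -0.29 ± 0.16). None of these genes was called, with an unadjusted p of 0.049 for Tomm5 in edgeR.

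Summed marker genes of other cell types differed between the libraries as well. Macrophage markers summed to 82.9 and 71.5 CPM in KO, against 117 and 95.8 CPM in WT islets. All 12 had a negative log2 fold change, beside 8360 of 16924 tested genes. At an unadjusted p under 0.05 in edgeR, 5 of the 12 were lower, beside 1.96% of all tested genes. Endothelial markers summed to 405 and 463 CPM in KO, against 470 and 484 CPM in WT islets (8 genes), stellate markers to 155 and 199 CPM in KO, against 204 and 238 CPM in WT islets (8 genes), and duct markers to 201 and 213 CPM in KO, against 218 and 379 CPM in WT islets (6 genes). The duct sum rests mainly on Spp1 and Krt7. Spp1 was at 19.0 and 47.9 CPM in KO, against 44.6 and 171 CPM in WT islets. Krt7 was at 154 and 136 CPM in KO, against 147 and 177 CPM in WT islets. The stellate sum rests mainly on Rgs5, at 124 and 164 CPM in KO, against 167 and 183 CPM in WT islets. No gene of these lists was at 0 in all 4 libraries. Their part in the values of the subunit genes was not tested.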

How the data were processed

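The authors deposited raw read counts per Ensembl gene for 4 libraries, 2 KO and 2 WT. Per the submitters' processing notes HISAT2, featureCounts and GRCm39 were used. For versions, annotation release, strand setting and reads with several matches, the sources used here give nothing, so counts of genes with near-identical copies or opposite-strand neighbours are uncertain. Per the labels' protocols the libraries were made from total RNA with a directional kit.

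Symbols, exon lengths and shared 50-base stretches came from GENCODE M21 on GRCm38, which named 52403 of the 52636 identifiers, and no coordinates were moved between builds. The counts were filtered with filterByExpr (minimum count 10), scaled by TMM and compared in edgeR 4.0.16 (R 4.3.3, limma 3.58.1) by its quasi-likelihood test (robust, two-sided, no covariates), adjusted by Benjamini-Hochberg over 16924 genes. Across genes, library pairs differed by 7.08 to 20 in chi-square per degree of freedom, with 13.3 between the KO and 12.9 between the WT libraries. Over the tested subunit genes the range was 1.36 to 2.82. Each library was counted as 1 sample, and these values do not show whether libraries are from separate animals. TPM by exon length used the best-supported principal transcript of each gene. TPM by coding length used the coding bases merged over all transcripts of a gene, so the 2 rest on different transcript models. Values are mean ± SD over 2 libraries, and fold changes are given ± SE. The steps were tested on simulated data.

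Subunit genes were named by role (core subunits, paralog sets), by smallest p and by extreme fold change or level in each complex (a result for 1 of them is not reported here), and of each other list the 2 genes of smallest p. The members, lists and rules were chosen with earlier results of these data known. Lists therefore get counts and medians with no test. Ppargc1a was named in addition, for its spread between the WT libraries. Macrophage, endothelial, stellate, duct, acinar and endocrine markers were summed to describe the libraries. Alternatives were RLE and upper-quartile scaling, no low-count filter, DESeq2 1.42.0, limma-voom, a replicate block, coding length and leaving out each library. Same-numbered libraries did not deviate together (correlation -0.3), so the numbers were not used as pairs.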

Additional observations from a re-analysis of the deposited data

How the results depend on the processing

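The count of subunit genes called was 0 under every alternative run, including each library left out. Over all tested genes, 0 were called higher and 1 lower, against 15 and 47 without the low-count filter, 0 and 6 with DESeq2, and 1 and 5 with the replicate block. Same-numbered libraries deviated in opposite directions, and a block with crossed numbers, chosen after seeing the data, called 1 higher and 1 lower. Leaving out 1 library gave 0 to 33 genes higher and 1 to 15 lower, with both highest counts without WT replicate 1. The cause was not tested. The median of the subunit genes stayed at -0.05 to -0.08 under the scaling, filter, test and block alternatives. With 1 library left out, the medians of other lists turned sign as well, as for the electron carriers (-0.11 to 0.20), cytosolic ribosome genes (-0.14 to 0.05) and the factors of complex V (-0.12 to 0.10). With all 4 libraries kept, signs reversed in 3 of the genes named here, whose values lay near 0. Atp5b was at -0.0029 with RLE, -0.0021 with upper-quartile scaling, -0.0031 with DESeq2, -0.00295 with limma-voom and -0.0026 with the replicate block. Sdhd was at -6.96e-05 with RLE and -1.5e-05 with DESeq2, and Ndufs3 at 0.0062 without the filter. With 1 library left out in turn, the log2 fold change crossed 0 in 20 named subunit genes. In complex I the ranges were -0.093 to 0.036 for Ndufv1, -0.051 to 0.043 for Ndufs3, -0.14 to 0.054 for Ndufs7 and -0.17 to 0.0052 for Ndufs8. In complexes II and III they were -0.069 to 0.088 for Sdha, -0.32 to 0.10 for Sdhb, -0.19 to 0.00995 for Sdhc, -0.12 to 0.14 for Sdhd, -0.0901 to 0.16 for Uqcrc1, -0.13 to 0.063 for Uqcrc2 and -0.074 to 0.21 for Uqcrb. In complex IV they were -0.13 to 0.073 for Cox4i1, -0.13 to 0.12 for Cox6a1, -0.10 to 0.53 for Cox6a2, -0.0305 to 0.27 for Cox6b1 and -0.088 to 0.31 for Cox7a2l. In complex V they were -0.11 to 0.12 for Atp5a1, -0.12 to 0.11 for Atp5b, -0.42 to 0.0048 for Atp5g1 and -0.069 to 0.19 for Atp5g2. By coding length, Cox6a2 made up 38.9% ± 5.29 of its pair in KO and 35.1% ± 1.58 in WT islets. Tested subunit genes had 47 to 3009 counts in a library and standard errors of 0.13 to 0.27.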
